A study of Mus musculus with 37 samples.

Results

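A set of 36 genes for the receptors, secreted modulators and feedback targets of Wnt signalling was followed through the developing mouse kidney. The genes came from a named list: the Frizzled receptors Fzd1 to Fzd10, the coreceptors Lrp5 and Lrp6, the secreted Wnt binders Sfrp1, Sfrp2, Sfrp4, Sfrp5, Frzb and Wif1, the Dickkopf genes Dkk1 to Dkk3 with the Dickkopf receptor Kremen1, the R-spondins Rspo1 to Rspo4, their receptors Lgr4 to Lgr6, the ubiquitin ligases Znrf3 and Rnf43, and the targets and nuclear factors Axin2, Nkd1, Notum, Lef1 and Tcf7. Of these, 35 had a probe set assigned to them alone (73 probe sets in all), and 33 were tested among 15709 genes. Tcf7 had no such probe set in the annotation used. Lrp5 was above the median of all values on 0 arrays and Rspo4 on 1, so both were dim in all components and were not tested.

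RNA from 37 samples was hybridised to 1 Affymetrix array each. All embryos were wild-type CD-1 mice, and each sample pooled sections from 5 kidneys, so an array is a pool and not an animal. At E15.5 the components were medullary interstitium (4 arrays), ureteric tip (3), medullary collecting duct (3), early proximal tubule (2), renal corpuscle at the capillary loop and maturing stages (4) and S-shaped body (4). Renal vesicle was taken at E12.5 (5 arrays), and ureteric bud (4) and metanephric mesenchyme (8) at E11.5. The protocols name laser capture microdissection throughout, while the titles of the 4 ureteric bud samples and of mesenchyme replicates 5 to 8 speak of dissection or collagenase. The RNA was amplified in 2 rounds. Nothing in the labels says that the pools of a component came from separate litters, so p-values measure only the spread between these samples.

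In canonical Wnt signalling a Wnt ligand joins a Frizzled receptor to Lrp5 or Lrp6, β-catenin accumulates and acts with Tcf and Lef factors in the nucleus, and targets such as Axin2, Nkd1 and Notum then restrain the pathway. Secreted Frizzled-related proteins and Wif1 bind Wnt ligands, Dkk1 and Dkk2 bind the coreceptors, and R-spondins bind Lgr receptors and so keep Znrf3 and Rnf43 from removing Frizzleds from the cell surface. In the kidney, Wnt9b from the duct and Wnt4 in the forming nephron are required for mesenchyme to become epithelium, and Wnt11 is made at the ureteric tip.

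Values are given as log2(signal + offset) after quantile normalization, with an offset of 34.62, so differences are on that scale and understate the change of dim genes. A gene was called when limma gave an adjusted p (Benjamini-Hochberg, over all genes) under 0.05 and the difference was at least 1 on the log2 scale. Each ± beside a difference is its standard error. Levels are compared between components for the same probe set, never between genes. In such bulk samples, fewer cells of a type and less RNA per cell cannot be told apart.

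The components carried their own marker genes, with 2 libraries standing apart. The mean over podocyte markers was 14.15 to 15.28 in renal corpuscle replicates 1 to 3 but 10.70 in replicate 4, which had 12.96 for the renal vesicle markers, against 9.39 to 10.50 in the other corpuscle arrays. S-shaped body replicate 3 had 14.93 for podocyte and 13.40 for proximal tubule markers, and 9.80 for renal vesicle markers, against 8.68 to 9.14 for proximal tubule and 12.70 to 13.18 for renal vesicle markers in the other S-shaped bodies. Corpuscle replicate 2 kept high podocyte markers but was the highest corpuscle for nephron progenitor markers too (the other 3 had list means of 7.68 to 8.24). Results that rest on these arrays are given with and without them. Of the 37 arrays, 29 were closest to another array of their own component, and the median signal per array was 127 to 334.

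Across the 9 components, 23 of the 33 tested genes differed in limma's F test, or 69.7%, against 49.9% of all genes tested. The list was chosen with earlier results of these data known. Its shares beside those of all genes, here and below, describe the list and do not test it. The median range between the highest and lowest component means was 2.78 for these genes and 1.79 for all genes. By role, 8 of 10 Frizzleds varied, 3 of 6 secreted Wnt binders, 3 of 4 among Dkk1 to Dkk3 and Kremen1, 2 of 3 R-spondins, 2 of 3 Lgr receptors, 1 of the pair Znrf3 and Rnf43, and all 4 of Axin2, Lef1, Nkd1 and Notum. Lrp6, the tested coreceptor, had component means from 12.41 ± 0.34 in ureteric tip (SD, n = 3) to 13.14 ± 0.59 in S-shaped body (SD, n = 4), a range of 0.74, and did not pass (limma F test, adjusted p = 0.342). Dkk3 had the widest range of the 33, 7.21, between medullary interstitium and proximal tubule. Rspo3 followed with 5.77, between mesenchyme and ureteric bud, and Dkk2 with 5.39, between renal corpuscle and ureteric bud. Medullary interstitium and ureteric bud were each the highest component for 8 of the 33 genes and renal vesicle for 6.

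**Figure D1:**
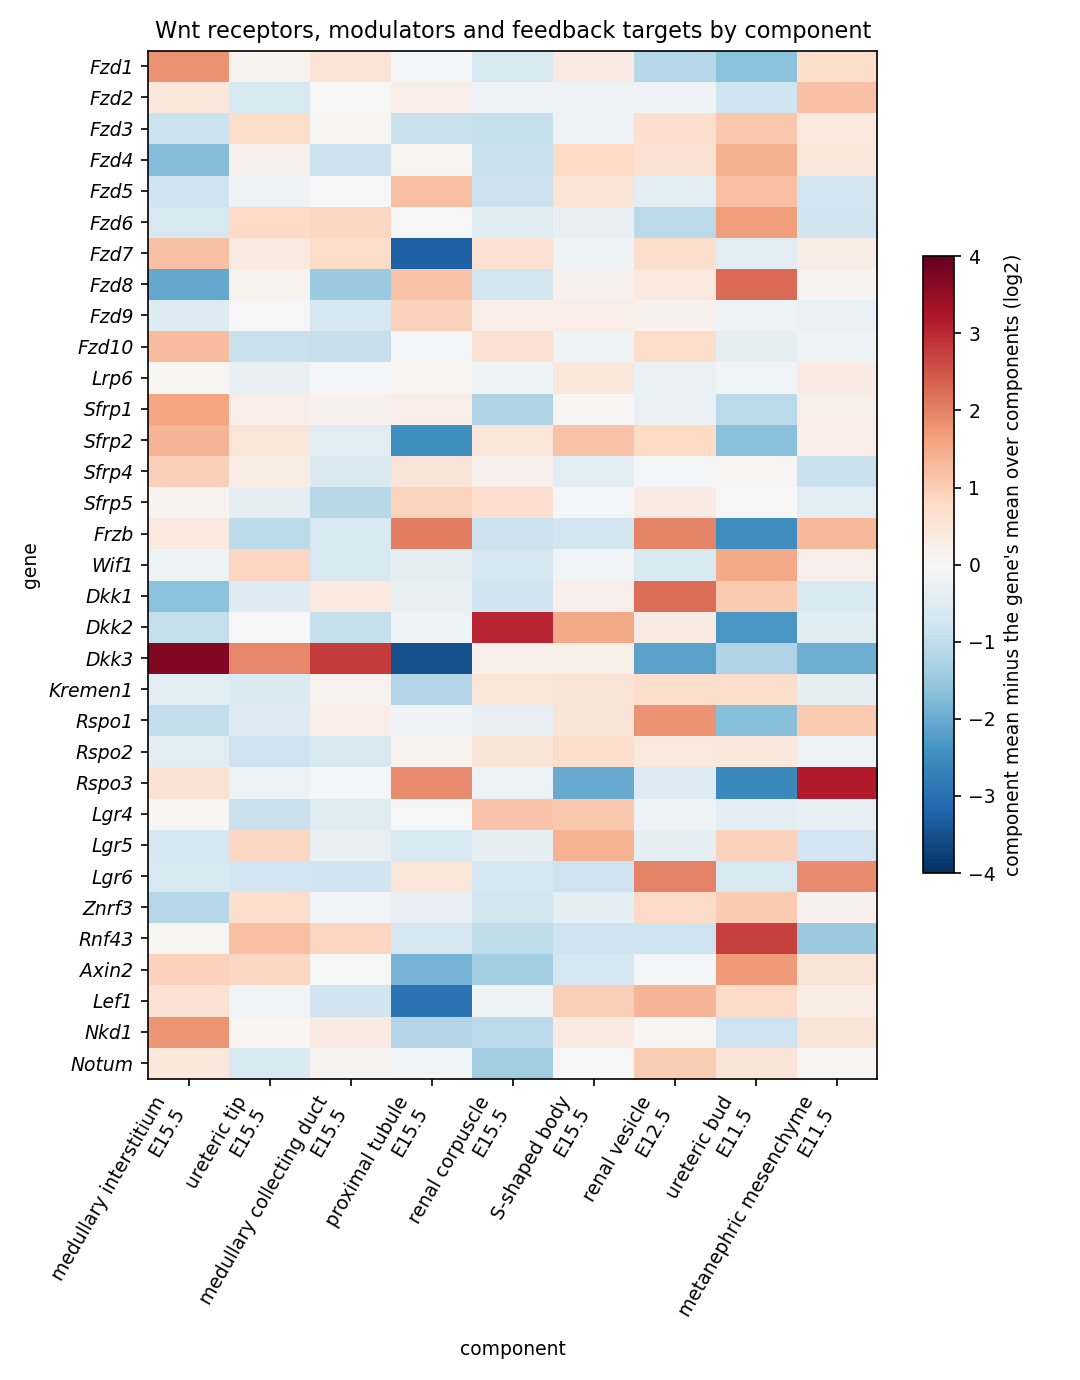
Component means of the 33 tested genes on the log2(signal + offset) scale, each minus the gene's own mean over the 9 components; columns are components, and red is above and blue below the gene's mean. Among the strongest reds are Dkk3 in medullary interstitium, Rspo3 in metanephric mesenchyme and Dkk2 in renal corpuscle, and Lrp6 is pale throughout, with a range of 0.74.

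At E11.5, ureteric bud and metanephric mesenchyme differed in 11 of the 33 genes. The bud epithelium was higher in 4 (Rnf43, Fzd6, Fzd8 and Fzd4), or 12.1%, against 4.08% of all genes called higher. It was lower in 7 (Rspo3, Frzb, Rspo1, Lgr6, Fzd1, Fzd2 and Sfrp2), or 21.2%, against 4.07% called lower. The median difference was 0.48 over the 33 genes and 0.02 over all genes.

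The Frizzled receptors divided between the tissues. Fzd6 read 13.89, 13.37, 14.46 and 13.82 in the 4 bud arrays, against 10.63 at the lowest, 11.45 at the median and 12.14 at the highest in the 8 mesenchyme arrays. That is a difference of 2.48 ± 0.47, or 5.58-fold (limma, adjusted p = 0.000275). Fzd8 read 11.63, 10.87, 10.95 and 11.26 in bud, against 8.63, 8.96 and 9.41 (lowest, median and highest) in mesenchyme. All bud arrays lay above all mesenchyme arrays for both receptors, and Fzd8 differed by 2.17 ± 0.54 (limma, adjusted p = 0.00582). Fzd4 read 14.38, 13.79, 13.73 and 14.00 in bud, against 12.73, 12.94 and 13.41 in mesenchyme, a difference of 1.01 ± 0.32 that lies at the threshold (limma, adjusted p = 0.0458). Fzd1 and Fzd2 went the other way. Fzd1 read 11.52, 10.75, 11 and 11.32 in bud, against 12.24, 13.49 and 14.29 in mesenchyme, and differed by -2.36 ± 0.41 (limma, adjusted p = 9.55e-05). Fzd2 read 13.34, 12.27, 13.39 and 12.29 in bud, against 14.46, 14.79 and 15.09 in mesenchyme, and differed by -1.97 ± 0.32 (limma, adjusted p = 3.29e-05). For neither did any bud array reach the lowest value in mesenchyme.

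Among the secreted binders, Frzb and Sfrp2 were lower in the bud. Frzb, a secreted Frizzled-related protein, read 7.68, 5.93, 8.66 and 6.0 in bud, against 10.40, 10.64 and 11.94 in mesenchyme, and differed by -3.81 ± 0.69 (limma, adjusted p = 0.000159). Bud replicates 2 and 4 were its dimmest arrays in the whole set. Sfrp2 read 12.85, 12.66, 12.65 and 12.51 in bud, against 13.48, 14.69 and 15.34 in mesenchyme, and differed by -1.93 ± 0.38 (limma, adjusted p = 0.000495). Wif1 (1.32 ± 0.54, adjusted p = 0.149) and Sfrp1 (-1.30 ± 0.65, adjusted p = 0.317) did not pass the limma test.

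The R-spondin arm held the 2 largest differences, those of Rspo3 and Rnf43. Rspo3, a secreted amplifier of Wnt signalling, read 6.87, 5.96, 7.82 and 5.76 in bud, against 11.79, 12.40 and 12.80 in mesenchyme. That is a difference of -5.77 ± 0.88, or 54.6-fold lower in the bud (limma, adjusted p = 1.45e-05). Rspo1 read 6.78, 6.89, 5.76 and 6.64 in bud, against 8.15, 9.38 and 10.12 in mesenchyme, a difference of -2.76 ± 0.54 (limma, adjusted p = 0.000492). Both R-spondins were below every mesenchyme array in every bud array. Lgr6, one of the R-spondin receptors, read 7.70, 7.35, 5.62 and 6.64 in bud, against 8.29, 9.21 and 10.87 in mesenchyme, and differed by -2.52 ± 0.70 (limma, adjusted p = 0.0156). Rnf43, a ligase that R-spondins restrain, had the largest rise of the 33 genes. It read 10.84, 10.02, 10.08 and 10.44 in bud, against 5.35, 5.59 and 8.02 in mesenchyme, a difference of 4.22 ± 0.60, or 18.6-fold (limma, adjusted p = 4.81e-06). Its brightest mesenchyme arrays were replicates 1 and 2, at 8.02 and 7.54, which also had the highest means over ureteric epithelium markers in that group, 11.39 and above, against 7.36 to 10.14 in the other 6. The part of those markers' cells in the Rnf43 values was not tested.

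**Figure D2:**
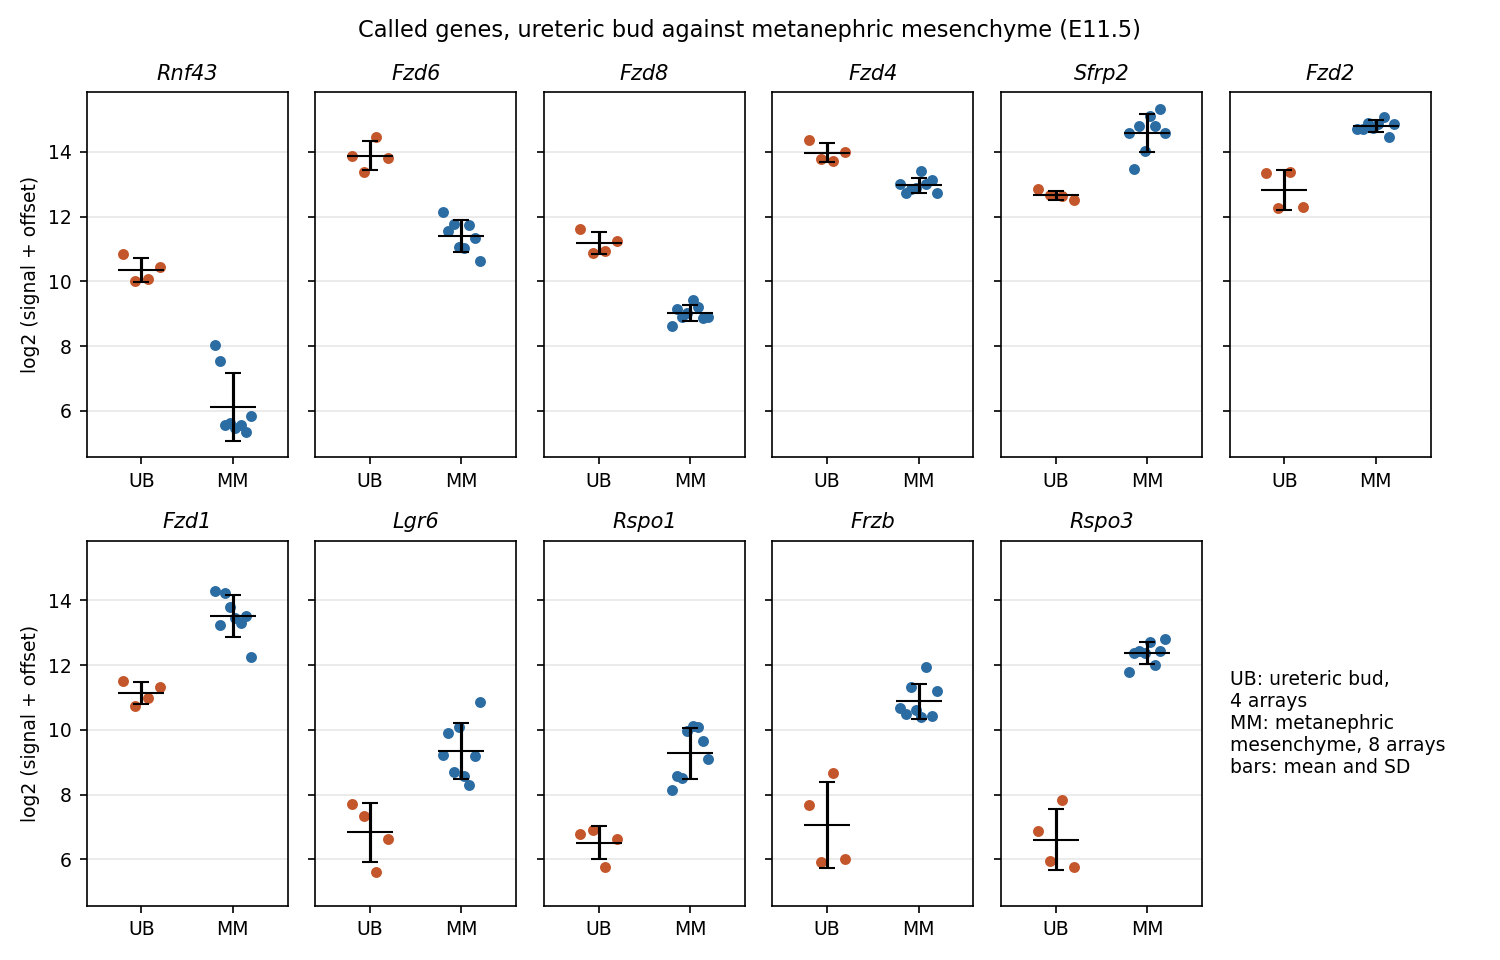
Values on each array, log2(signal + offset), for the 11 genes called between ureteric bud (UB, left, 4 arrays) and metanephric mesenchyme (MM, right, 8 arrays); bars are the mean and SD. In each panel the bud arrays lie wholly above or wholly below the mesenchyme arrays, and Rspo3 and Rnf43 have the largest differences in means.

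Axin2, a scaffold that limits β-catenin, read 12.49, 12.45, 12.64 and 12.64 in bud, against 10.73, 11.36 and 11.97 in mesenchyme. Its groups did not overlap, yet the difference of 1.20 ± 0.62 did not pass (limma, adjusted p = 0.348), with the spread taken over all 37 arrays. Lgr5, the R-spondin receptor known from intestinal stem cells, read 8.94, 8.36, 7.97 and 8.66 in bud, against 6.42, 6.70 and 7.34 in mesenchyme, again without overlap and without passing (1.70 ± 0.67, limma, adjusted p = 0.131). In all, 17 of the 33 genes had groups that did not overlap, as did 13.3% of all genes. Nkd1 (-1.34 ± 0.58, adjusted p = 0.198), Lef1 (0.48 ± 0.63, adjusted p = 0.86) and Notum (0.48 ± 0.44, adjusted p = 0.749) did not pass the limma test.

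Of 38 other pathway genes tested, 5 were higher and 1 lower in bud. They were led by Sostdc1, a secreted antagonist of Wnt and Bmp signals (5.27 ± 0.70, limma, adjusted p = 1.28e-06), and by Ror2, a receptor for Wnt5a (-2.32 ± 0.45, limma, adjusted p = 0.000369). Interstitial markers were lower in bud for 6 of 7 genes, with list means of 7.51 to 8.98 in bud and 12.32 to 13.30 in mesenchyme. Mural markers were lower for 4 of 4 (8.17 to 8.59 in bud, 11.25 to 13.18 in mesenchyme) and macrophage markers for 4 of 5 (7.32 to 7.94 in bud, 8.60 to 10.90 in mesenchyme). Their part in the lower values of Rspo3, Frzb, Fzd1 and the others was not tested. Fzd4 lost its call in limma without any one of 11 of the 12 arrays (0.87 to 1.09, adjusted p 0.0546 to 0.202), and Lgr6 without bud replicate 3 (-2.12, adjusted p = 0.105) or 4 (-2.46, adjusted p = 0.0556). Fzd4, Fzd8 and Lgr6 were also not called against either kind of titled mesenchyme alone, with Fzd8 at 2.33 and 2.08. Other probe sets of the called genes had the same sign but were often smaller, at -0.69 for Fzd1, -1.36 for Frzb, -2.53 for Rspo3, -1.18 for Lgr6 and 1.3 and 1.74 for Fzd6. The other 2 of Fzd2 gave -0.79 and -0.67, and with the more variable of them standing for the gene Fzd2 was not called (limma, adjusted p = 0.633). Bud replicate 3 and mesenchyme replicate 6 shared a date in their titles, and between them the 11 differences kept their sign, with Rspo3 at -4.19 and Rnf43 at 4.51. With the titled date as a term in limma, all 11 stayed called.

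Renal vesicle at E12.5 was set against the E11.5 mesenchyme that forms it, so stage and component changed together. The comparison shares its mesenchyme arrays with the one above. Of the 33 genes, 1 was higher (Dkk1, 3.03%), against 3.87% of all genes called higher, and 3 were lower (Rspo3, Fzd1 and Fzd2, 9.09%), against 7.98% called lower. These shares are near the background. The median difference was 0.39, and -0.06 over all genes.

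Dkk1 encodes a secreted antagonist that binds Lrp5 and Lrp6. It read 13.83, 12.25, 11.30, 13.96 and 13.22 in vesicle, against 8.48 at the lowest, 10.14 at the median and 11.60 at the highest in mesenchyme. The difference was 2.85 ± 0.88, or 7.21-fold (limma, adjusted p = 0.0263), with vesicle replicate 3 inside the mesenchyme's range. Mesenchyme replicates 1 to 4 read 11.60, 10.38, 11.04 and 10.39, all above replicates 5 to 8 at 9.14, 9.89, 9.58 and 8.48. Against the 3 mesenchyme arrays titled laser capture (replicates 1, 3 and 4) the difference was 1.90 and was not called (limma, adjusted p = 0.438).

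The promoter window of Dkk1 is shown because it holds the most copies of a TCF and LEF core at the first start of any listed gene. Fzd1, which was called in 5 of the 9 comparisons, and Axin2, a classical target with no match, stand beside it. Each window runs from 250 bases before to 50 after the gene's start in RefSeq (GRCm38.p6), 5′ to 3′ on the gene's strand: Dkk1 at chr19:30549447-30549746 on the minus strand, Fzd1 at chr5:4758167-4758466 on the minus strand and Axin2 at chr11:108920099-108920398 on the plus strand. Capitals mark CTTTGA or CTTTGT, searched on both strands.
Dkk1 promoter: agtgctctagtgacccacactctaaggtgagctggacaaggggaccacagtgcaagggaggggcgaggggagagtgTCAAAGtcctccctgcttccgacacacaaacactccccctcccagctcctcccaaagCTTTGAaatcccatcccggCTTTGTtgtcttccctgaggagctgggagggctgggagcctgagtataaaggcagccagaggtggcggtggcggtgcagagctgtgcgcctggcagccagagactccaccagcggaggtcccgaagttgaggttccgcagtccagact
Fzd1 promoter: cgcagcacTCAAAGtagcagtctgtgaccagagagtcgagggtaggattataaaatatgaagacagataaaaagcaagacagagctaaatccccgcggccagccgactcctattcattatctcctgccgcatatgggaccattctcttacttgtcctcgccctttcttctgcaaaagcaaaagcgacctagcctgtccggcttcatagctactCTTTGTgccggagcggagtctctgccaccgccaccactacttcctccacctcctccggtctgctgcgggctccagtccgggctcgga
Axin2 promoter: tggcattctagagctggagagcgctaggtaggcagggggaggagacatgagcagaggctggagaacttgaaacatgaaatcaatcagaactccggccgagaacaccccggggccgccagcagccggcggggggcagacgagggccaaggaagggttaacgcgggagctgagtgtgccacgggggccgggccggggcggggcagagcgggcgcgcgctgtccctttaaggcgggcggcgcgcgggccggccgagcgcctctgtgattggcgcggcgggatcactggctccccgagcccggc
Dkk1 holds 3 matches, at positions 77, 134 and 153 from the 5′ end, and Fzd1 holds 2, at positions 9 and 214. Of 21 listed genes with a promoter in the table, 5 (Dkk1, Fzd1, Dkk2, Frzb and Fzd7) hold a match, or 23.8%, against 31.3% of 27025 promoters of all genes. The median share of G and C letters was 66.7% in the listed promoters and 52.7% in all promoters. The 2 shares therefore come from windows of unlike letter content. Sfrp2, which like Fzd1 was called in 5 of the 9 comparisons, holds 0 matches. A match describes letters and not binding.

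The R-spondin gene Rspo3 and the receptor genes Fzd1 and Fzd2 fell in the vesicle. Rspo3 read 5.87, 12.27, 7.77, 8.80 and 8.73 in vesicle, against 11.79, 12.40 and 12.80 in mesenchyme, a difference of -3.68 ± 0.82 (limma, adjusted p = 0.00235). Vesicle replicate 2 stayed inside the mesenchyme's range. Fzd1 read 11.54, 11.47, 13.40, 10.73 and 11.05 in vesicle, against 12.24, 13.49 and 14.29 in mesenchyme, and differed by -1.87 ± 0.38 (limma, adjusted p = 0.000944). Fzd2 read 13.02, 13.21, 14.82, 13.25 and 13.03 in vesicle, against 14.46, 14.79 and 15.09 in mesenchyme, and differed by -1.33 ± 0.30 (limma, adjusted p = 0.00239). For both receptors vesicle replicate 3 lay among the mesenchyme values. That array also had the highest mean over interstitial markers among the vesicles, 12.62, against 9.56 to 11.35 in the other 4.

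Lef1, a nuclear partner of β-catenin, had its highest mean in the vesicle, 12.16 ± 0.82 in renal vesicle (SD, n = 5), against 11.10 ± 0.37 in metanephric mesenchyme (SD, n = 8), without passing (limma, adjusted p = 0.239). Notum, an enzyme that inactivates Wnt ligands, also had its highest mean there, 9.48 ± 0.57 in renal vesicle (SD, n = 5), against 8.52 ± 0.49 in metanephric mesenchyme (SD, n = 8) (limma, adjusted p = 0.115). Among the 38 other pathway genes, 5 were higher, led by the cyclin gene Ccnd1 (2.43 ± 0.36, limma, adjusted p = 2.24e-05), and 6 lower, led by the receptor gene Ror1 (-3.57 ± 0.66, limma, adjusted p = 0.000313). Interstitial markers were lower for 6 of 7 genes, with list means of 9.56 to 12.62 in vesicle and 12.32 to 13.30 in mesenchyme, and macrophage markers for 3 of 5 (7.93 to 10.62 in vesicle, 8.60 to 10.90 in mesenchyme). Endothelial markers were lower for 3 of 6 (7.76 to 9.56 in vesicle, 8.61 to 10.93 in mesenchyme), mural markers for 2 of 4, erythroid markers for 2 of 4 and nephron progenitor markers for 2 of 6. Their part in the falls of Rspo3, Fzd1 and Fzd2 was not tested. Other probe sets gave -1.06 and -0.37 for Fzd2, -1.24 for Fzd1, -2.14 for Rspo3 and 3.21 for Dkk1, and with its most variable probe set Fzd2 was not called (limma, adjusted p = 0.11). Dkk1 lost its call in limma without vesicle replicate 1 (2.62, adjusted p = 0.0755), 4 (2.59, adjusted p = 0.0731) or 5 (2.77, adjusted p = 0.0521). No vesicle shared a titled date with a mesenchyme array. With the titled date as a term in limma, undated arrays taken as 1 level, all 4 calls were lost, at 1.28 for Dkk1, -4.55 for Rspo3, -0.06 for Fzd1 and 0.02 for Fzd2 (adjusted p 0.112 to 0.988). That fit called 1 of the 33 genes, which was not among these 4. Vesicle replicate 3 is the only undated vesicle in that fit, beside 6 undated mesenchyme arrays.

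In the S-shaped body, a later nephron stage taken at E15.5, 1 of the 33 genes was higher than in the vesicle (Fzd1, 3.03%), against 3.27% of all genes, and 2 were lower (Lgr6 and Frzb, 6.06%), against 1.72% of all genes. Fzd1 read 12.87, 12.73, 14.05 and 12.84 in S-shaped body, against 11.54, 11.47, 13.40, 10.73 and 11.05 in vesicle, a difference of 1.48 ± 0.45 (limma, adjusted p = 0.0455). The groups overlapped through vesicle replicate 3. Lgr6 read 6.20, 5.80, 7.52 and 6.99 in S-shaped body, against 10.76, 8.02, 12.88, 7.79 and 7.75 in vesicle, a difference of -2.81 ± 0.77 (limma, adjusted p = 0.0263). Its vesicle values were spread widely, with replicates 1 and 3 far above the rest. Frzb read 7.19, 10.04, 8.80 and 9.27 in S-shaped body, against 12.66, 10.76, 11.92, 10.42 and 12 in vesicle, a difference of -2.73 ± 0.76 (limma, adjusted p = 0.0283). Neither Lgr6 nor Frzb had overlapping groups. Their other probe sets gave smaller differences, -0.75 for Lgr6 and -0.53 for Frzb, while that of Fzd1 gave 1.42.

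Each of the 3 calls lay near the threshold and was lost without any one of several arrays. No S-shaped body shared a titled date with a vesicle, and with the date as a term limma called Lgr6 (-6.83) but not Fzd1 (0.16) or Frzb (-1.58, adjusted p 0.719 to 0.969 for both). The titled dates of the other vesicles occur in no other component, so in that fit vesicle replicate 3 alone set the vesicle level. That array was the highest vesicle for Lgr6 (12.88) and for Fzd1 (13.40). In limma, Fzd1 lost its call without any one of S-shaped bodies 1, 3 and 4 or vesicles 1, 2, 4 and 5 (1.17 to 1.58, adjusted p 0.0595 to 0.209). Frzb lost it without S-shaped body 1 or 3 or vesicle 1, 3 or 5 (-2.18 to -2.72, adjusted p 0.0503 to 0.123), and Lgr6 without S-shaped body 1 or 2 or vesicle 1 or 3 (-1.95 to -2.67, adjusted p 0.0672 to 0.0909). With S-shaped body replicate 3 and renal corpuscle replicate 4 left out, Lgr6 was still called, at -3.11 ± 0.84 (limma, adjusted p = 0.037), among 1.78% of all genes called higher and 0.808% lower. Lgr5 was then called higher in S-shaped body, at 2.92 ± 0.56 (limma, adjusted p = 0.00201). It read 10.91, 10.78 and 8.58 in the 3 S-shaped bodies kept and 5.44 in replicate 3, against 6.01, 7.94, 5.86, 8.38 and 7.66 in vesicle. Lgr4, its relative, was at 14.66 ± 0.34 in S-shaped body (SD, n = 4) and 13.41 ± 0.90 in renal vesicle (SD, n = 5), just outside the threshold (1.25 ± 0.39, limma, adjusted p = 0.0561). Podocyte markers were higher in S-shaped body for 3 of 4 genes (10.71 to 14.93 in S-shaped body, 7.18 to 8.21 in vesicle), and nephron progenitor markers were lower for 3 of 6 (list means up to 7.89 in S-shaped body, and from 8.99 to 10.52 in vesicle). Their part in these results was not tested. Of the 38 other pathway genes, 6 were higher, led by Sostdc1 (5.76 ± 0.76, limma, adjusted p = 6.15e-06), and 1 was lower, Sp5, a Wnt-responsive transcription factor gene (-2.59 ± 0.69, limma, adjusted p = 0.0231).

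**Figure D3:**
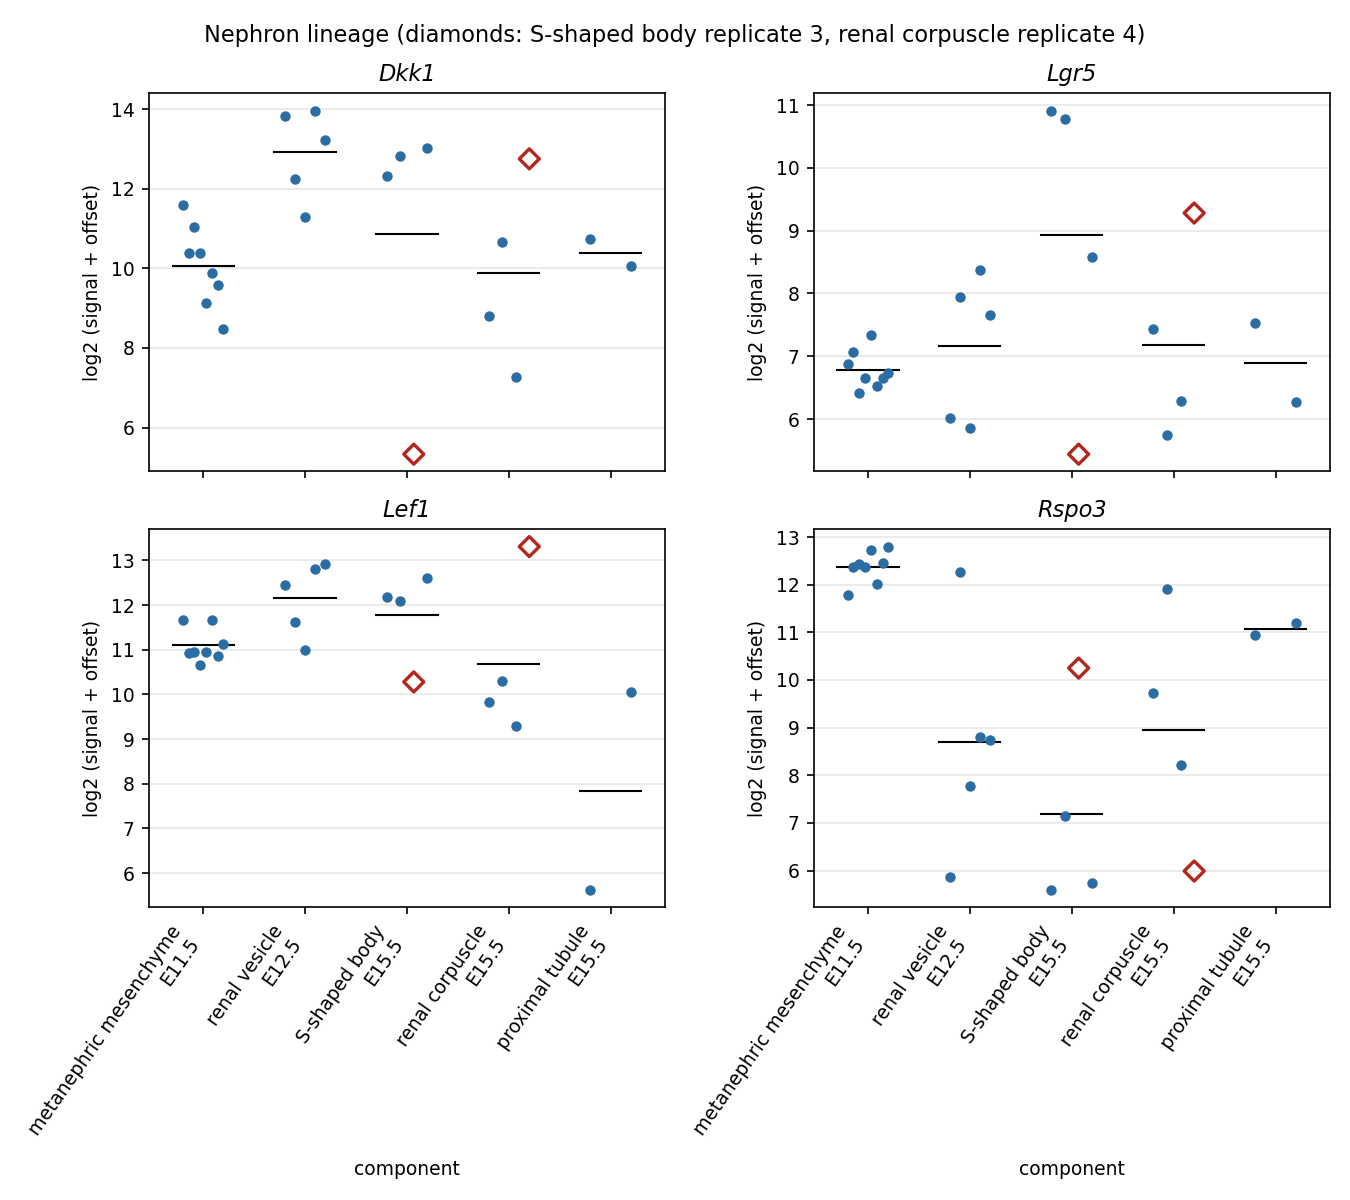
Values on each array, log2(signal + offset), of Dkk1, Lgr5, Lef1 and Rspo3 in the mesenchyme and the nephron components, ordered by stage; lines are means, and diamonds mark S-shaped body replicate 3 and renal corpuscle replicate 4. For Dkk1 the marked S-shaped body, at 5.33, is far below the other 3, and the marked corpuscle, at 12.75, is above the other 3.

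Between renal corpuscle, the forming glomerulus with its capsule, and S-shaped body, both at E15.5, 0 genes were called higher by limma, against 0.102% of all genes, and 1 lower (Fzd4, 3.03%), against 0.477%. At an unadjusted p under 0.05, 5 of the 33 differed, or 15.2%, against 13.3% of all genes, so that share is near the background. Fzd4, a receptor for Wnt ligands and for norrin, read 10.75, 11.56, 11.70 and 12.64 in corpuscle, against 13.81, 13.40, 12.96 and 13.18 in S-shaped body. The groups did not overlap, and the difference was -1.68 ± 0.38 (limma, adjusted p = 0.0324). The other 2 probe sets of Fzd4 gave -0.43 and 0.25, so its probe sets disagreed in sign. In limma the call was lost without any one of corpuscles 1 and 3 or S-shaped bodies 1, 2 and 4 (-1.37 to -1.73, adjusted p 0.0559 to 0.1), and with the titled date as a term (-1.46, adjusted p = 0.628). Of the 38 other pathway genes, 0 were higher and 1 lower, Porcn, whose enzyme acylates Wnt ligands (-2.19 ± 0.50, limma, adjusted p = 0.0358).

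This comparison turned on the 2 libraries that stood apart. Without them, 5 genes were called, among 1.5% of all genes higher and 2.61% lower. Dkk1 read 8.79, 10.66 and 7.28 in the 3 corpuscles kept, against 12.32, 12.81 and 13.03 in the 3 S-shaped bodies kept, a difference of -3.81 ± 0.81 (limma, adjusted p = 0.00435). Lgr5 read 7.43, 5.75 and 6.28 in corpuscle, against 10.91, 10.78 and 8.58 in S-shaped body, a difference of -3.60 ± 0.63 (limma, adjusted p = 0.000593). Lef1 read 9.83, 10.29 and 9.30 in corpuscle, against 12.18, 12.09 and 12.60 in S-shaped body, a difference of -2.48 ± 0.70 (limma, adjusted p = 0.0362). All 3 were lower in every corpuscle kept than in every S-shaped body kept. Fzd4 was at -2.12 ± 0.41 (limma, adjusted p = 0.00162). Rspo3 was the gene called higher, at 9.72, 11.90 and 8.21 in corpuscle, against 5.59, 7.15 and 5.73 in S-shaped body, a difference of 3.79 ± 0.98 (limma, adjusted p = 0.0223). The highest of these Rspo3 values is that of corpuscle replicate 2, which stood out for nephron progenitor markers, with Eya1 at 13.90, against 7.31 to 8.28 in the other 3 corpuscles, and Crym at 13.82, against 7.44 to 9.99. With that array left out as well, Rspo3 was no longer called, at 2.81 ± 1.05 (limma, adjusted p = 0.0893). Dkk1 at -4.69 ± 0.85, Lgr5 at -3.24 ± 0.69, Lef1 at -2.72 ± 0.78 and Fzd4 at -2.24 ± 0.46 stayed called lower (adjusted p 0.000456 to 0.0248), beside 5.82% of all genes, and Sfrp2 at -1.85 ± 0.48 and Fzd3 at -2.26 ± 0.59 were then called lower too (limma, adjusted p 0.0126 to 0.0129). In the 2 libraries that stood apart the order was turned for Dkk1, Lgr5, Lef1 and Rspo3: corpuscle replicate 4 read 12.75, 9.28, 13.31 and 5.99 for Dkk1, Lgr5, Lef1 and Rspo3, and S-shaped body replicate 3 read 5.33, 5.44, 10.28 and 10.25 for the same genes. Dkk2, another coreceptor ligand, had its highest component mean in the corpuscle. It read 13.31, 10.74, 10.57 and 11.09 in corpuscle, against 10.06, 8.24, 10.70 and 10.55 in S-shaped body, and did not pass (1.54 ± 1.04, limma, adjusted p = 0.55).

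The early proximal tubule, with 2 arrays, was set against the same S-shaped bodies. Of the 33 genes, 1 was higher (Rspo3, 3.03%), against 5.64% of all genes, and 4 were lower (Lef1, Dkk3, Sfrp2 and Fzd7, 12.1%), against 4.27% of all genes. Sfrp2 read 12.03 and 11.73 in tubule, against 15.61, 16.01, 14.59 and 15.70 in S-shaped body, a difference of -3.60 ± 0.54, or 12.1-fold (limma, adjusted p = 2.24e-05). The tubule arrays were its lowest in the whole set. Sfrp2 was the 1 call of the 5 kept under each of the 19 alternatives tried for it, among them leaving out either tubule array.

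Among the other falls, those of Fzd7 and Lef1 shrank most without tubule replicate 1, while Dkk3 stayed at -2.71. Fzd7 read 7.70 and 12.52 in tubule, against 12.85, 13.10, 13.38 and 13.58 in S-shaped body (-3.12 ± 0.58, limma, adjusted p = 0.000402). Lef1 read 5.62 and 10.05 in tubule, against 12.18, 12.09, 10.28 and 12.60 in S-shaped body (-3.95 ± 0.89, limma, adjusted p = 0.0028). Replicate 1 was far below replicate 2 for both. Dkk3, a divergent Dickkopf gene, read 5.76 and 7.79 in tubule, against 7.98, 10.89, 13.83 and 9.30 in S-shaped body (-3.72 ± 1.00, limma, adjusted p = 0.0128), and its other probe set gave 0.63. Without replicate 1, limma gave -0.71 for Fzd7 (adjusted p = 0.305), -1.74 for Lef1 (adjusted p = 0.324) and -2.71 for Dkk3 (adjusted p = 0.221). Between tubule replicate 2 and S-shaped body replicate 2, which share a titled date, the differences were -0.59 for Fzd7, -2.04 for Lef1, -3.09 for Dkk3 and -4.28 for Sfrp2. With the date as a term, limma kept Sfrp2 (-4.40) and none of Fzd7, Lef1, Dkk3 and Rspo3 (adjusted p 0.0996 to 0.345). That fit called 2 of the 33 genes, and the one beside Sfrp2 was not called in the main fit. Axin2 was split likewise, at 6.24 and 11.74 in tubule, against 9.83, 10.92, 10.29 and 9.72 in S-shaped body, and did not pass (limma, adjusted p = 0.424).

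Rspo3 read 10.95 and 11.19 in tubule, against 5.59, 7.15, 10.25 and 5.73 in S-shaped body, a difference of 3.89 ± 1.25 (limma, adjusted p = 0.0396). The groups did not overlap, but the other probe set of Rspo3 gave -1.35. In limma its call was lost without either tubule array or any one of S-shaped bodies 1, 2 and 4 (3.36 to 4.01, adjusted p 0.0631 to 0.147). With S-shaped body replicate 3 and corpuscle replicate 4 left out, Rspo3 was at 4.92 ± 1.10 (limma, adjusted p = 0.00218), and Lgr5 was called lower in tubule, at -3.19 ± 0.70 (limma, adjusted p = 0.00179). Frzb read 12.48 and 10.77 in tubule, its highest component mean, and did not pass (2.80 ± 0.98, limma, adjusted p = 0.0604). Proximal tubule markers were higher for 5 of 6 genes (13.90 to 15.04 in tubule, 8.68 to 13.40 in S-shaped body) and renal vesicle markers lower for 4 of 6. Nephron progenitor markers were called higher for 1 of 6 genes, with list means of 8.86 and 10.56 in tubule and up to 7.89 in S-shaped body. The part of those markers' cells in the Rspo3 values was not tested. Of the 38 other pathway genes, 0 were higher and 5 lower, led by Tnfrsf19, a Wnt-responsive receptor gene (-3.0 ± 0.97, limma, adjusted p = 0.0407).

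In the duct lineage at E15.5, ureteric tip was compared with medullary collecting duct. Limma called 0 of the 33 genes in either direction, against 0.121% of all genes higher and 0.236% lower. At an unadjusted p under 0.05 there were 3, or 9.09%, against 5.85% of all genes. With array weights limma called 2, or 6.06%, against 6.45% of all genes. Fzd4 had the lowest adjusted p of the 33, 0.653 in limma. It read 13.11, 12.83 and 12.27 in tip, against 11.44, 11.94 and 11.72 in collecting duct, without overlap. Lgr5 read 8.13, 8.47 and 8.57 in tip, against 7.23, 6.78 and 7.75 in collecting duct, also without overlap (1.14 ± 0.89, limma, adjusted p = 1). Wif1 read 8.19, 8.32 and 5.90 in tip, against 6.03, 5.25 and 6.69 in collecting duct. Rnf43 read 8.29, 9.06 and 9.11 in tip, against 8.03, 8.56 and 8.78 in collecting duct, and its ranges overlapped. In all, 6 of the 33 genes had groups that did not overlap, against 15.1% of all genes. Among the 38 other pathway genes, limma called 0 in either direction. Ureteric tip markers were called for 0 of 4 genes, with a median difference of 2.81 (list means of 12.10 to 12.94 in tip, 8.12 to 9.60 in collecting duct). Collecting duct markers were lower in tip for 3 of 5 (8.42 to 9.02 in tip, 10.71 to 12.91 in collecting duct). A gene without a call here is therefore not shown to be equal in tip and duct.

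Set against the E11.5 bud, the E15.5 ureteric tip was higher in 3 of the 33 genes (Dkk3, Sfrp2 and Fzd1, 9.09%), against 2.04% of all genes, and lower in 0, against 2.21%. The median difference was -0.35 for these genes and -0.22 for all genes. Dkk3 read 12.59, 11.78 and 12.20 in tip, against 9.42, 8.76, 9.04 and 9.05 in bud, a difference of 3.12 ± 0.88, or 8.69-fold (limma, adjusted p = 0.0321). Sfrp2 read 15.21, 14.55 and 14.72 in tip, against 12.85, 12.66, 12.65 and 12.51 in bud (2.16 ± 0.48, limma, adjusted p = 0.00484). Fzd1 read 13.10, 12.46 and 13.26 in tip, against 11.52, 10.75, 11 and 11.32 in bud (1.79 ± 0.51, limma, adjusted p = 0.0352). For each, every tip array was above every bud array. Groups did not overlap for 17 of the 33 genes, against 33.8% of all genes. Fzd8 (-2.13 ± 0.67, limma, adjusted p = 0.0579) and Fzd4 (-1.24 ± 0.41, limma, adjusted p = 0.072) were among these and just missed the threshold. Rnf43, the gene most above mesenchyme in the bud, read 8.29, 9.06 and 9.11 in tip, against 10.84, 10.02, 10.08 and 10.44 in bud, and did not pass either (limma, adjusted p = 0.27).

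Stage and the titled collection method differ together here, since the bud samples are titled dissection or collagenase. Interstitial markers were also higher in tip for 6 of 7 genes (10.55 to 12.89 in tip, 7.51 to 8.98 in bud) and mural markers for 3 of 4 (9.73 to 11.08 in tip, 8.17 to 8.59 in bud). Their part in the rises of Dkk3, Sfrp2 and Fzd1 was not tested. Sfrp2 kept its call without each single array. With the titled date as a term in limma, Sfrp2 (2.46) and Fzd1 (2.46) stayed called and Dkk3 did not (1.77, adjusted p = 0.543). In limma, Dkk3 and Fzd1 lost theirs without any one of the 7, at 2.92 to 3.33 (adjusted p 0.0583 to 0.133) for Dkk3 and 1.63 to 2.03 (adjusted p 0.052 to 0.137) for Fzd1. The other probe set of Fzd1 gave 0.57, and that of Dkk3 gave -0.16. Of the 38 other pathway genes, 0 were higher and 2 lower, led by Porcn (-2.24 ± 0.54, limma, adjusted p = 0.0108).

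The medullary interstitium, the stroma between the collecting ducts, was set against the unweighted mean of the other 5 components of E15.5 (16 arrays) and against the collecting duct alone. Both comparisons share the interstitium and collecting duct arrays. Against the other components, 6 of the 33 genes were higher (Dkk3, Nkd1, Fzd1, Fzd10, Fzd7 and Sfrp2, 18.2%), against 3.48% of all genes, and 2 were lower (Fzd8 and Fzd4, 6.06%), against 2.64%. The median difference was 0.07 for the 33 genes and 0.01 for all genes. Against collecting duct, 2 genes were higher (Fzd10 and Sfrp2, 6.06%), against 2.01% of all genes, and 0 lower, against 2.46%.

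Among the Frizzleds, Fzd1 read 14.47, 14.31, 14.82 and 14.73 in interstitium, against 10.77 at the lowest, 12.86 at the median and 14.05 at the highest of the other 16 arrays. It was the 1 gene of the 33 without overlap in this comparison, against 0.77% of all genes, and differed by 1.73 ± 0.38 (limma, adjusted p = 0.00333). Fzd10 read 8.10, 8.50, 10.47 and 9.60 in interstitium, against 6.35, 7.79 and 9.75 (lowest, median and highest) in the other components (1.55 ± 0.39, limma, adjusted p = 0.01). Its collecting duct arrays were at 7.45, 6.35 and 7.18, a difference of 2.17 ± 0.53 for interstitium against collecting duct (limma, adjusted p = 0.0107). Fzd7 read 14.14, 14.88, 14.30 and 14.92 in interstitium, against 7.70, 13.59 and 14.90 in the other components (1.52 ± 0.38, limma, adjusted p = 0.0101). The lowest of these values is that of proximal tubule replicate 1, while replicate 2 read 12.52. Collecting duct, at 14.02, 14.04 and 14.36, was close to interstitium for Fzd7. Over the alternatives tried, the Fzd7 difference ran from 1.04 to 2. Fzd4 and Fzd8 had their lowest component means here. Fzd4 read 11.07, 11.96, 9.74 and 10.55 in interstitium, against 10.75, 12.46 and 13.81 in the other components (-1.58 ± 0.30, limma, adjusted p = 0.000699). Fzd8 read 8.38, 6.41, 7.13 and 5.55 in interstitium, against 5.94, 8.76 and 10.84 in the other components (-1.89 ± 0.49, limma, adjusted p = 0.0142). Other probe sets gave -1.21 for Fzd8, -1.33 and -1.1 for Fzd4 and 1.2 for Fzd1; with the most variable probe set per gene, Fzd8 and Fzd4 were not called (limma, adjusted p = 0.363 and 0.176).

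Of the secreted modulators, Dkk3 read 14.61, 13.10, 13.53 and 14.70 in interstitium, against 5.76, 11.34 and 13.83 in the other components. That is a difference of 3.38 ± 0.65, or 10.4-fold (limma, adjusted p = 0.00084), and its other probe set gave 2.1. Collecting duct came next, at 12.41, 13.57 and 13.22. Sfrp2 read 15.84, 15.35, 15.65 and 15.94 in interstitium, against 11.73, 14.70 and 16.17 in the other components (1.51 ± 0.35, limma, adjusted p = 0.00539). Its mean of 15.70 ± 0.26 in medullary interstitium (SD, n = 4) lay within 1 SD of that in S-shaped body, 15.48 ± 0.62 (SD, n = 4). Collecting duct, at 13.52, 13.56 and 14.67, gave a difference of 1.78 ± 0.48 for interstitium against collecting duct (limma, adjusted p = 0.0214). Sfrp1 had its highest mean in interstitium, 12.66 ± 0.92 (SD, n = 4), and missed the call (1.66 ± 0.60, limma, adjusted p = 0.0904). It was called once the 2 libraries that stood apart were left out, at 1.79 ± 0.56 (limma, adjusted p = 0.0412).

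Nkd1, which binds Dishevelled and dampens Wnt signals, was the feedback gene called in interstitium with all arrays in the fit. It read 10.79, 11.27, 12.97 and 12.25 in interstitium, against 6.71, 10.03 and 11.71 in the other components (2.06 ± 0.53, limma, adjusted p = 0.0138). Replicates 1 and 2 lay inside the range of the other components, and the other 3 probe sets of Nkd1 gave 0.48 to 1.16. Axin2 was at 11.79 ± 0.51 in medullary interstitium (SD, n = 4), its highest level after ureteric bud at 12.55 ± 0.10 (SD, n = 4), and did not pass (1.56 ± 0.57, limma, adjusted p = 0.0965). Lef1 (1.20 ± 0.58, adjusted p = 0.232) and Notum (0.83 ± 0.41, adjusted p = 0.24) did not pass the limma test either. Once S-shaped body replicate 3 and corpuscle replicates 2 and 4 were left out, Axin2 was called higher in interstitium, right at the threshold. It was then at 1.69 ± 0.56 (limma, adjusted p = 0.05 as rounded), beside 4.65% of all genes called higher. Leaving out corpuscle replicate 2 was chosen after seeing the data. The lowest Axin2 values among the other arrays kept were 6.24 in proximal tubule replicate 1 and 6.90 in corpuscle replicate 3. Ureteric tip, at 10.98, 12.02 and 12.03, was close to interstitium. Of the 38 other pathway genes, 3 were higher than in the other components, led by Apcdd1, a membrane-bound Wnt inhibitor (3.44 ± 0.44, limma, adjusted p = 6.47e-06), and 1 was lower, the planar cell polarity gene Celsr1 (-1.53 ± 0.43, limma, adjusted p = 0.0243). Against collecting duct 2 were higher, led by Sostdc1 (3.45 ± 0.87, limma, adjusted p = 0.0145), and 0 lower.

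**Figure D4:**
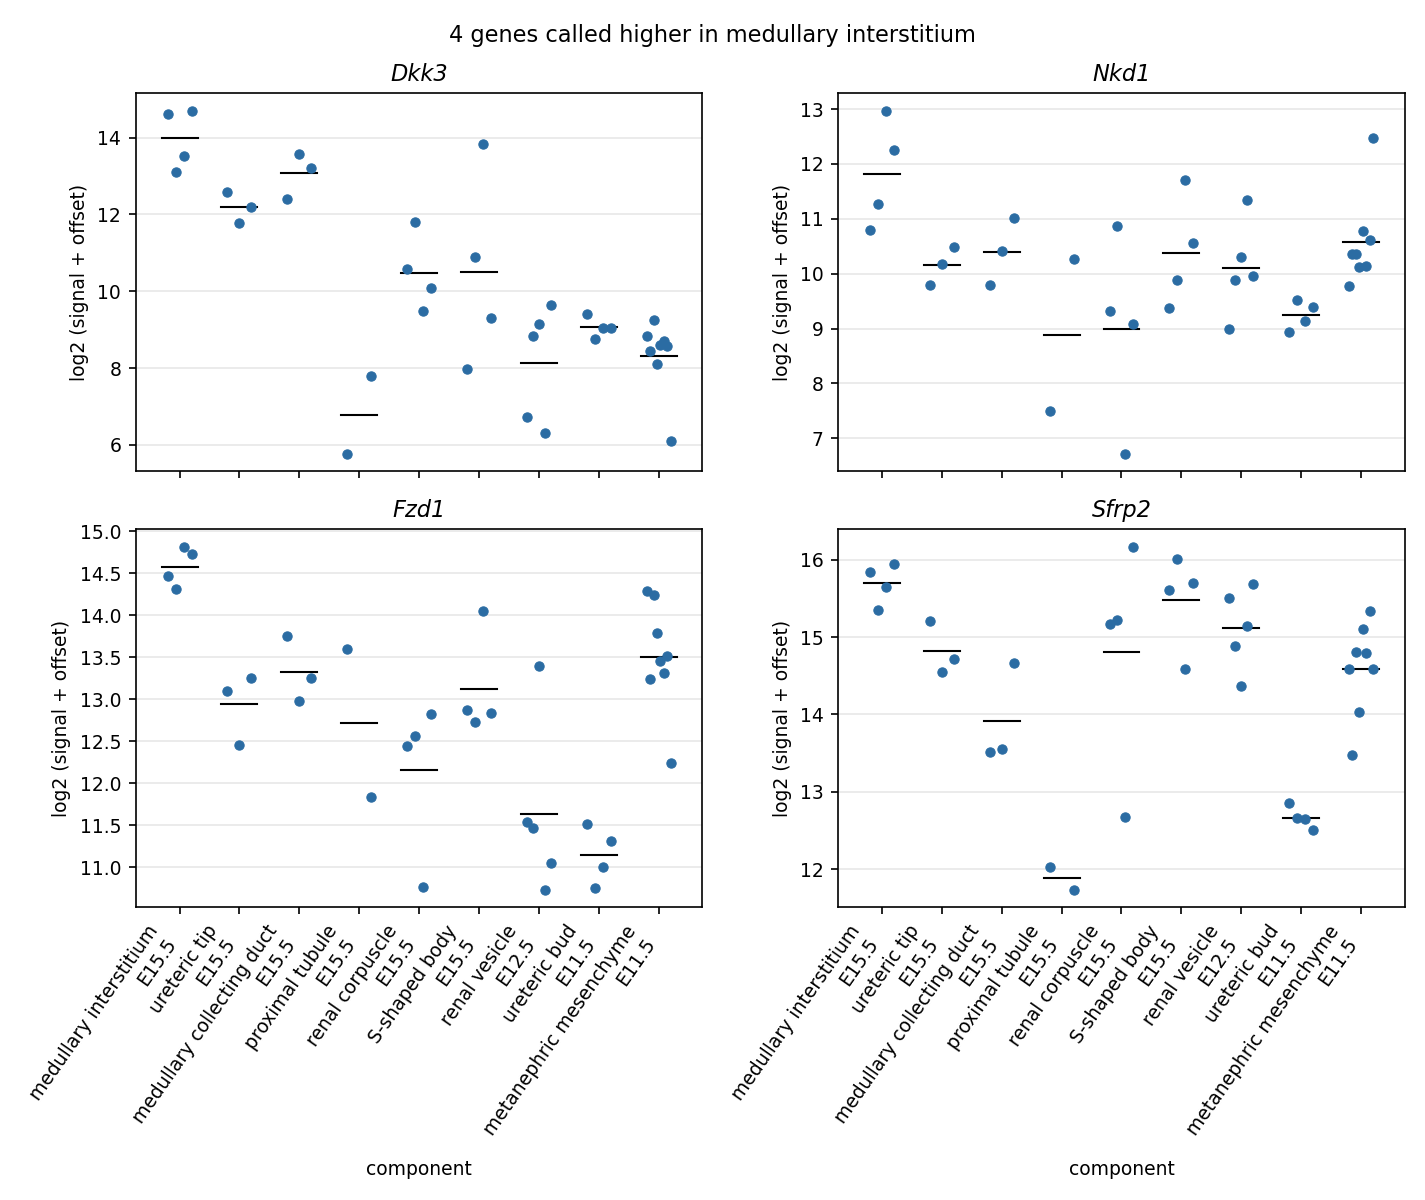
Values on each array, log2(signal + offset), of Dkk3, Nkd1, Fzd1 and Sfrp2 in the 9 components; lines are means. Medullary interstitium has the highest mean in each panel, and for Fzd1 its 4 arrays, at 14.31 to 14.82, lie above all other E15.5 arrays.

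Interstitial markers were higher in interstitium for 6 of 7 genes (13.96 to 14.22 in interstitium), and macrophage markers for 2 of 5 (9.56 to 11.03 in interstitium; 9.63 to 10.31 in proximal tubule, the highest of the other components, and 7.54 to 7.91 in ureteric tip, the lowest). Ureteric epithelium markers ran from 10.20 to 12.91 across the interstitium arrays, highest in replicate 1. The part of these markers' cells in the results was not tested. In limma, leaving out interstitium replicate 4 ended 4 of the 8 calls against the other components, with Fzd10 at 1.41, Fzd7 at 1.40, Fzd8 at -1.45 and Nkd1 at 1.91 (adjusted p 0.0656 to 0.144). Leaving out replicate 3 ended those of Fzd10 (1.12, adjusted p = 0.145) and Nkd1 (1.67, adjusted p = 0.128), and replicate 2 that of Fzd8 (-1.74, adjusted p = 0.0601), all in limma. Against collecting duct, Sfrp2 lost its limma call without collecting duct 1 or 2 or interstitium 3 or 4 (1.58 to 1.80, adjusted p 0.0506 to 0.17), and Fzd10 without collecting duct 2 or interstitium 3 (1.74 to 1.85, adjusted p 0.0677 to 0.133). Between interstitium replicate 1 and collecting duct replicate 2, which share a titled date, Fzd10 differed by 1.76 and Sfrp2 by 2.28. With the titled date as a term in limma both calls against collecting duct were lost, at 2.06 and 0.94 (adjusted p 0.106 to 0.35). Against the other components, that fit kept Dkk3 at 3.12, Fzd1 at 1.45 and Fzd4 at -1.68 and lost the other 5 (0.07 to 0.169 as adjusted p).

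Several genes were called in none of these comparisons with all arrays in the fit. Fzd3 varied in the F test (limma, adjusted p = 0.0173), from 13.32 ± 0.33 in ureteric bud (SD, n = 4) to 11.27 ± 0.95 in renal corpuscle (SD, n = 4). Lgr4 ran from 14.73 ± 0.21 in renal corpuscle (SD, n = 4), within 1 SD of the mean in S-shaped body, to 12.69 ± 0.65 in ureteric tip (SD, n = 3). Kremen1, a Dickkopf receptor, ran from 10.86 ± 0.46 in renal vesicle (SD, n = 5) to 8.97 ± 1.67 in proximal tubule (SD, n = 2). Notum was lowest in renal corpuscle, at 7.09 ± 1.10 (SD, n = 4). Wif1 was dim, with its highest mean in ureteric bud, 8.13 ± 0.55 (SD, n = 4). Znrf3, the ligase related to Rnf43, also had its highest mean in ureteric bud, 11.38 ± 0.19 (SD, n = 4), and did not pass the F test (limma, adjusted p = 0.0643). Neither did Fzd5, Fzd9, Sfrp4, Sfrp5 or Rspo2 in limma (adjusted p = 0.158, 0.505, 0.488, 0.0539 and 0.438 in that order). The last 4 of these had component means from 6.24 to 9.10, near the median of all values, 7.89.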

How the data were processed

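RNA of 37 pooled samples of mouse kidney components was measured on 1 Affymetrix array each. The deposited values are the authors' intensity per probe set, made with GCOS per the submitters' processing notes (its version is not given in the sources used here), and the 2% trimmed mean was 1500 on every array. The protocols in the labels describe laser capture and 2 rounds of amplification. The table held 0 columns of other samples.

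Before log2, 34.62 was added to each value (the 20th percentile over the table), which compresses dim genes, and arrays were quantile normalized, which assumes like overall distributions. Of 45101 probe sets, 64 were controls, 34945 were annotated to 1 gene, 932 to several and 9160 to none. Probe sets above the pooled median of 7.89 on at least 2 arrays were kept (29066 with 1 gene), and the probe set with the highest mean stood for its gene, which mattered for 7497 genes with several. Gene names came from the platform annotation, of which 34741 matched the reference list.

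Limma 3.58.1 (R 4.3.3) fitted 1 mean per component over all 37 arrays (28 residual degrees of freedom, median prior 7.35), with moderated, trended variances and Benjamini-Hochberg adjustment over 15709 genes. The procedure was tested on simulated data. The number of arrays limits the precision.

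Groups came from the labels, and replicates were numbered in accession order. The genes, marker lists and the 42 other pathway genes (38 of them tested) were chosen with earlier results of these data known. In each comparison up to 6 called genes per direction by size were to be named, with the largest called rise and fall of other pathway genes; Sfrp2 in bud, the seventh fall, was named after its values were seen. What the numbers in the titles count is not stated, and the main fit did not pair samples by them. Over 105 pairs with the same number in different components, deviations correlated at -0.23 to 0.22 (median 0.01). Alternatives were other offsets, normalization, filters, probe sets, array weights, fewer samples, titled date, number and method, and single libraries left out. Promoter sequences are RefSeq's; protein sequences were not analysed here.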

Additional observations from a re-analysis of the deposited data

Results flagged for a closer look

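Of 198 groups of 4 to 8 arrays of one listed gene in one component, 15 (7.58%) held an array that lay apart from the rest by Dixon's criterion; chance gives about 1 in 20. Values are log2(signal + offset).

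S-shaped body replicate 3 accounted for 4 of them. It read 14.05 for Fzd1, against 12.73 to 12.87 in the 3 remaining arrays of that component, and 13.39 for Sfrp1, against 10.37 to 10.46. It was far below them for Dkk1, at 5.33 against 12.32 to 13.03, and for Znrf3, at 6.64 against 10.63 to 11.45. Renal corpuscle replicate 4 stood apart upwards for Fzd8, at 10.84 against 7.06 to 7.51, and for Fzd10, at 9.75 against 7.93 to 8.23. These are the 2 libraries that went against the markers of their component.

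Mesenchyme replicate 8 stood apart for 3 genes. It was low for Sfrp1, at 8.42 against 11.32 to 12.16 in the other 7 mesenchyme arrays, and for Dkk3, at 6.10 against 8.12 to 9.25, and high for Nkd1, at 12.48 against 9.78 to 10.77. Renal vesicle replicate 3 read 14.82 for Fzd2, against 13.02 to 13.25 in the other 4 vesicles.

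Medullary interstitium replicate 2 was high for Rspo3, at 11.59 against 9.04 to 9.38 in the other 3, and low for Rnf43, at 5.85 against 8.16 to 8.43. Its mean over nephron progenitor markers was also the highest of the interstitium arrays, 11.10, against 7.51 to 9.93. The part of those markers' cells in these values was not tested. Replicate 1 of that component was low for Lgr4, at 12.36 against 13.94 to 14.26. Lgr4 was also lower in S-shaped body replicate 2, at 14.16 against 14.81 to 14.86. Rnf43 read 7.86 in renal corpuscle replicate 3, against 6.08 to 6.24 in the other 3 corpuscles, all of them below or near the median of all values, 7.89.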

How the results depend on the processing

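The 37 calls of a listed gene in a comparison were recomputed 944 times in all: 805 kept the call, 137 lost it with the same sign and 2 turned sign. Of the 37, 11 held in each alternative tried and 18 without each single library. Counts of listed genes called, out of 33, moved as follows, each with the share of all genes called in that fit, and the cause was not tested. With array weights they were 19 for bud over mesenchyme (11 in the report; all genes 15.8%), 3 for proximal tubule over S-shaped body (5; 3.25%), 2 for ureteric tip over collecting duct (0; 6.45%), 13 for tip over bud (3; 23.4%) and 4 for interstitium over collecting duct (2; 9.25%). With limma fitted to the compared samples alone, where fewer arrays give the spread, they were 18 for bud over mesenchyme (13.5%), 13 for tip over bud (18.8%), 4 for interstitium over the other components (8 in the report, 3.24%), 1 for proximal tubule over S-shaped body (0.993%), 0 for S-shaped body over vesicle (3 in the report, 0.764%) and 0 for corpuscle over S-shaped body (1 in the report, 0%). The probe set of largest variance gave 5 for S-shaped body over vesicle (7.73%), 5 for tip over bud (8.45%) and 0 for corpuscle over S-shaped body (0.509%), where Fzd4 turned to 0.25. An offset of 100 gave 5 for tip over bud (4.74%). The titled date as a fixed term, chosen after seeing the data, gave 1 for vesicle over mesenchyme (4 in the report, 7.77%), with Fzd2 at 0.02, 1 for S-shaped body over vesicle (1.2%), 0 for corpuscle over S-shaped body (0.0191%), 2 for proximal tubule (4.29%), and 0 and 3 for interstitium over collecting duct (3.65%) and over the other components (3.49%). The 1 for vesicle over mesenchyme was not among the 4 in the report, and of the 2 for proximal tubule only Sfrp2 was called in the report. As a random block the date moved no count by over 1.5 times. The 3 mesenchyme arrays titled laser capture gave 1 for vesicle over mesenchyme (2.48%). Leaving out both libraries that stood apart gave 5 for corpuscle over S-shaped body (4.11%), and leaving out corpuscle replicate 2 as well, also chosen after seeing the data, gave 6 (8.85%). Titled numbers as a replicate block, which share only a number, gave 0 for S-shaped body over vesicle (3.98%) and moved no other count by over 1.5 times.

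Leaving out 1 library gave 22 to 27 genes varying among components (23), 9 to 11 for bud over mesenchyme, 3 to 5 for vesicle over mesenchyme, 0 to 3 for S-shaped body over vesicle, 0 to 2 for corpuscle and 3 to 6 for proximal tubule over S-shaped body, 0 to 0 for tip over collecting duct, 1 to 1 for tip over bud, 0 to 2 for interstitium over collecting duct and 4 to 10 over the other components. With all libraries, the shares of all genes called were 49.9%, 8.15%, 11.9%, 4.99%, 0.579%, 9.91%, 0.356%, 4.25%, 4.46% and 6.11% in the same order. Those of the fits without a library are not given here, so the ranges show only how the counts moved. Where 1 array of proximal tubule was left, it was assumed to vary like the other components. Genes near or below the median of all values were measured least well.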
